A study of Pan paniscus with 11 samples.

Results

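The genes described here restrain the cell division cycle. They are 9 genes in all: the inhibitors of cyclin-dependent kinases (CDKs) CDKN1A, CDKN1B, CDKN1C, CDKN2A, CDKN2B and CDKN2C, and CCNG1, GADD45A and BTG2, which p53 can switch on when cells arrest. They were chosen by name, and all probe sets whose only symbol in the probe annotation is that of a member were taken. Of 8226 genes with such a probe set on the array, 7 of the 9 were found, with 12 probe sets among 12558. CDKN2C and BTG2 were matched to no probe set in this way and are not analysed here.

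Total RNA of 11 fibroblast cultures grown from bonobos (Pan paniscus) was hybridised, each to 1 array. One culture was taken when the cells of male line 1, from a 4 year old, covered 50% of the dish (the half-confluent culture). The other 10 were standard harvests of lines from 10 animals that the labels call normal: male lines 1 to 5, aged 4, 2, 12, 17 and 19 years, and female lines 1 to 5, aged 9, 2, 4, 20 and 20 years. The labels used here give neither passage number nor density at a standard harvest. Each line is 1 animal and 1 culture, so the spread between lines holds biological and technical differences together. An array reads a whole culture, so a change in the share of cells that hold a transcript and a change in its amount per cell cannot be told apart.

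The CDK inhibitors form a pair of families. CDKN1A (p21), CDKN1B (p27) and CDKN1C (p57) bind cyclin and CDK complexes of several kinds, whereas CDKN2A (p16), CDKN2B (p15) and CDKN2C (p18) bind CDK4 and CDK6 and keep D-type cyclins from activating them. With these kinases held back, the retinoblastoma protein stays bound to E2F factors, and genes for DNA replication stay silent. CDKN1A is the best known transcriptional target of p53. CCNG1 (cyclin G1), GADD45A and BTG2 are further targets tied to arrest and DNA damage. In cultured human fibroblasts, CDKN1A and CDKN2A are known for their rise in senescence, and CDKN1B for its role in arrest at high density.

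Intensities are linear-scale values per probe set, and those under 100 were set to 100, the floor, below which the deposited values hold no order. Tests were run on 5 of the 12 probe sets, those that exceeded this floor in 5 or more arrays: 1 each for CDKN1A, CDKN1C, CDKN2A, CCNG1 and GADD45A. Levels of different probe sets are not on a common scale and are not compared with each other. Each of 9 fibroblast markers exceeded the floor in every culture, whereas the median intensity of endothelial, melanocyte and keratinocyte markers was 100. The endothelial marker CLDN5, the melanocyte marker TYRP1 and the smooth muscle marker DES were at the floor in every culture. Other markers exceeded it in every culture: the smooth muscle markers ACTA2 (915 to 21614) and SMTN (1350 to 3750) and the keratinocyte marker KRT10 (287 to 703). The blood markers CD68 (144 to 703) and CD3E (118 to 290) did so too. The share of probe sets above the floor was 52.1% to 60.9% per array, lowest in female line 1 and highest in male line 4.

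CDKN1A was far above the floor in every culture. Its intensity was 2904, 3633, 5059, 4038 and 4796 in male lines 1 to 5, against 6560, 2381, 3489, 3209 and 1636 in female lines 1 to 5. The highest and the lowest line were thus both female, and the sexes overlapped, with means of 4086 ± 874 in males and 3455 ± 1882 in females (SD, n = 5 each). The highest line stood 4.01-fold above the lowest.

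CDKN1C, the inhibitor p57, is imprinted in human and mouse and mutated in human overgrowth disorders. The tested probe set of CDKN1C read 162, 190, 228, 331 and 240 in male lines 1 to 5, against 1616, 192, 400, 123 and 129 in female lines 1 to 5. Female line 1 stood alone, 4.04-fold above the next line, female line 3. The other 2 CDKN1C probe sets were at the floor in most cultures, and female line 1 was highest in both of them too. One of them read 360 in that line, 154 in male line 4 and 125 in male line 5, and 100 elsewhere. The other read 127 in male line 1 and 145 in both male line 3 and male line 4, against 269 in female line 1, and 100 elsewhere.

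CDKN2A lay close to the floor. Its intensity was 113, 100, 109, 176 and 106 in male lines 1 to 5, against 278, 100, 100, 100 and 127 in female lines 1 to 5, so that 4 of 5 male and 2 of 5 female lines were above the floor. The CDKN2A locus encodes p16 and, in another reading frame, the p53 activator ARF, and the sources used here do not say which of these transcripts the probes read.

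Both remaining arrest genes were above the floor in all cultures. CCNG1, whose product recruits a phosphatase to the p53 inhibitor MDM2, read 178, 360, 264, 341 and 213 in male lines 1 to 5, against 416, 130, 189, 168 and 191 in female lines 1 to 5. The sexes overlapped, although 4 of 5 females were below 4 of 5 males. GADD45A, a stress sensor that binds PCNA and CDK1, read 327, 449, 268, 587 and 339 in male lines 1 to 5, against 679, 447, 626, 625 and 265 in female lines 1 to 5. Here too the ranges overlapped, and female line 5 was the lowest, as it was for CDKN1A.

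The inhibitors CDKN1B and CDKN2B gave almost no signal. Both probe sets of CDKN2B and 2 of 3 probe sets of CDKN1B were at the floor in all 11 cultures, and the third CDKN1B probe set read 111 in female line 4 and 100 in the others. The probes were designed on human sequences and may bind bonobo transcripts less well, so a reading at the floor gives an upper bound on this array and does not show that the gene was silent.

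**Figure D1:**
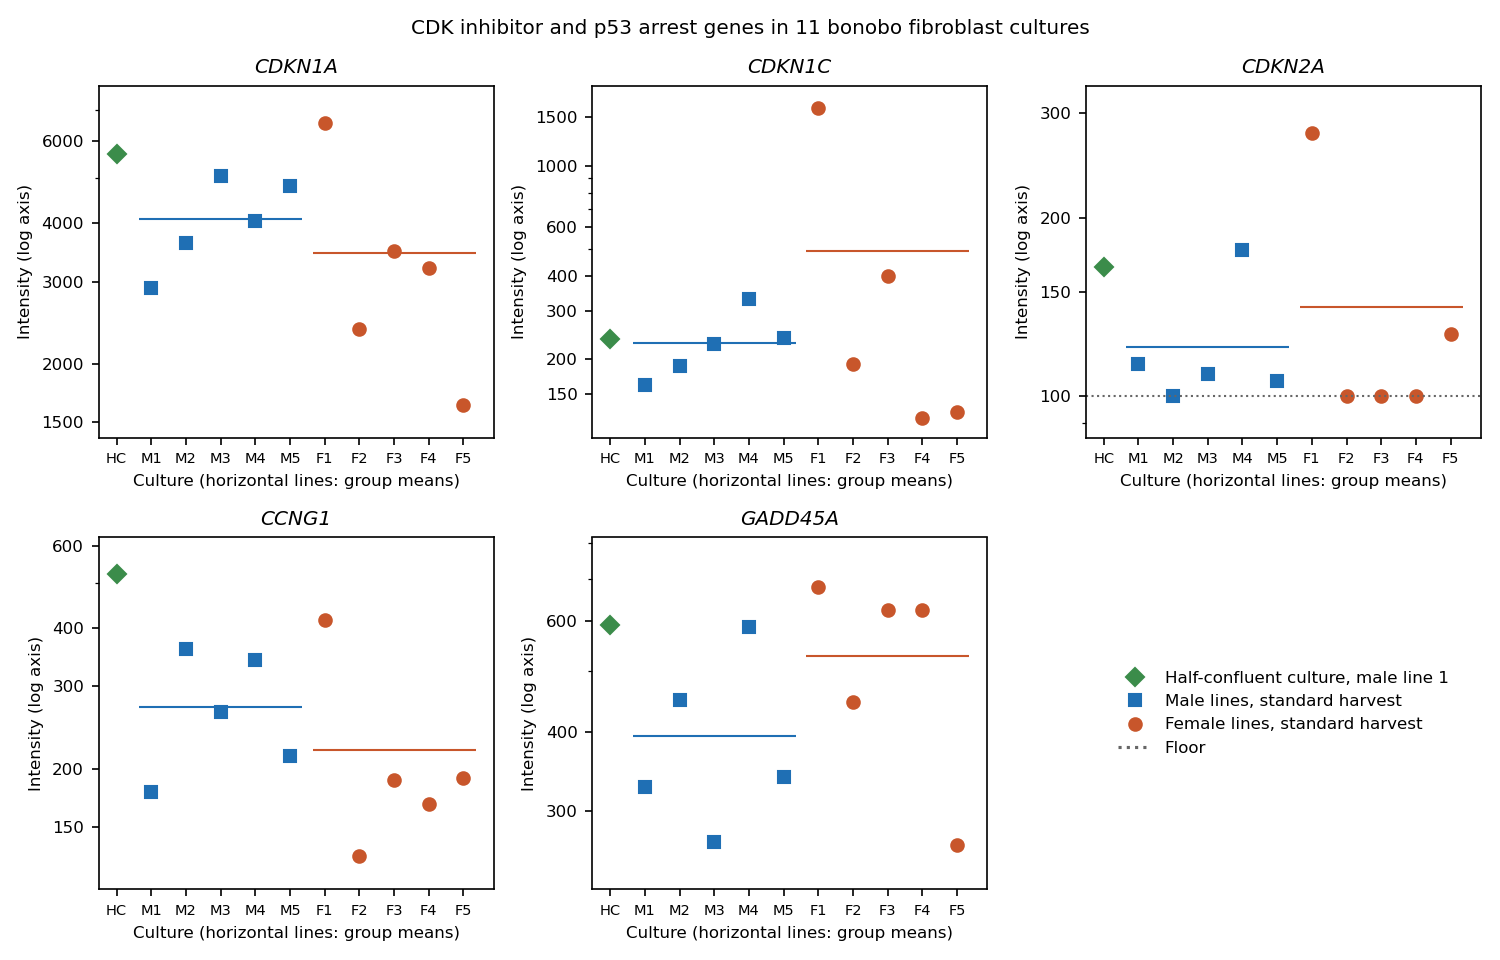
Intensity (log axis) of the 5 tested genes in the half-confluent culture of male line 1 (HC), male lines M1 to M5 and female lines F1 to F5; each point is 1 culture, horizontal lines are arithmetic group means, and the dotted line is the floor of 100. Female line 1 is the highest standard line in all 5 panels, and the half-confluent culture lies above male line 1 in each.

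The lines differed from one another in all 5 genes by more than in the median probe set. For CDKN1C the SD across lines, on the log2 scale, was 1.08, larger than for 98.4% of the 7333 tested probe sets. It was 0.57 for CDKN1A (78.7%), 0.55 for CCNG1 (74.7%), 0.52 for GADD45A (70.3%) and 0.48 for CDKN2A (63.2%), where the median over all tested probe sets was 0.43. Without female line 1 the SD was 0.57 for CDKN1C and 0.27 for CDKN2A.

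Female line 1 was the highest of the 10 standard lines in all 5 tested genes. Over all tested probe sets it was highest in 10.6%. The CDK inhibitor gene CDKN2D, not a member but counted with the other CDK regulators, was not highest there. It read 138 in female line 1 and 100 to 693 in the other lines, with a median of 199.5 over all 10. This line also had the lowest mean log2 intensity of 25 mitosis genes, 7.14 against 7.75 to 9.60 in the other lines, and of 31 DNA replication genes, 7.40 against 8.35 to 8.96. Among CDKs, cyclins and other CDK regulators, it was the single lowest line in 11 of 27 genes, compared with 12.6% of all tested probe sets. These 11 included CDK1 (100, against 187 to 1173 elsewhere), the S phase kinase CDK2 (965, against 1679 to 3265), the mitotic cyclin CCNB1 (148, against 161 to 1268) and the adaptor CKS1B (297, against 322 to 1690). CDK7, the CDK-activating kinase, went the other way, with 1550 in this line and 661 to 1430 in the others.

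Other p53 targets were divided in the same line. Of 22 tested, 6 were highest there: the DNA damage recognition genes DDB2 and XPC, the death receptor gene TNFRSF10B, TP53I3, TP53I11 and the stress cytokine gene GDF15. DDB2 read 1284 in female line 1 and 270 to 581 in the other lines. A further 5 were lowest there: GADD45B, BTG3, SFN, DUSP5 and PCNA. PCNA, the replication clamp, read 621 in this line and 1916 to 3535 in the others. The p53 antagonist gene MDM2, another target with 4 probe sets, was read by the one of highest mean. That probe set was above the floor in 2 of 11 cultures, at no more than 187, and female line 1 was not one of them. So near the floor, it says little about MDM2 in any line. Female line 1 had an ACTB 3' to 5' ratio of 1.06, within the 0.669 to 2.27 of all arrays, and 18S ribosomal RNA controls at 100. Its smooth muscle markers summed to 21017, the highest of the females (from 9211) and within the male range of 3273 to 26419, with 2 of 5 such markers above the floor in all cultures. MYH11, a smooth muscle myosin gene, read 6163 in female line 1 and 100 to 1567 in the other 9 lines. No other smooth muscle marker had its peak in this line. Male line 5 held the peaks of ACTA2 (21614, against 12477 here) and SMTN (3750, against 1862 here). The peak of CNN1 was in female line 3 (1033, against 415 here), and DES stayed at the floor. The part of cell composition in this pattern was not tested.

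The first comparison asked whether these genes differed between male and female lines. None of the 5 passed. Over all 7333 probe sets, limma with sex and age in 1 model called 2 at an adjusted p under 0.05, or 0.0273%, and 171 had an unadjusted p under 0.05, none of them a member. The male minus female difference of CDKN1A was 0.37 ± 0.31 log2 (SE), with a 95% confidence interval of -0.30 to 1.04 (limma, adjusted p = 0.99994). That interval runs from 0.815-fold to 2.05-fold, so a male level 2-fold above the female level lies within it at 5 lines each. CCNG1 had a difference of 0.38 (interval -0.37 to 1.13), GADD45A -0.40 (interval -1.09 to 0.28), CDKN1C -0.37 (interval -1.60 to 0.86) and CDKN2A -0.12 (interval -0.74 to 0.50). Without female line 1, the differences of CDKN1C and CDKN2A turned to 0.25 and 0.16, whereas those of the other 3 genes kept their sign whichever line was left out. Their size did not hold: leaving out each line, the difference ran from 0.094 (without female line 5) to 0.64 (without female line 1) for CDKN1A, from 0.19 (without female line 2) to 0.65 (without female line 1) for CCNG1, and from -0.65 (without female line 5) to -0.28 (without female line 4) for GADD45A.

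Age was the second comparison. None of the 5 members and none of the 7333 probe sets (0%) passed in limma, and the lowest adjusted p over all probe sets was 0.834. Before adjustment, 251 probe sets had a p under 0.05, no member among them. The estimates were -0.015 log2 per 10 years for CDKN1A (95% interval -0.47 to 0.44), 0.016 for CCNG1 (-0.50 to 0.53), 0.092 for CDKN2A (-0.34 to 0.52), -0.11 for GADD45A (-0.58 to 0.36) and -0.28 for CDKN1C (-1.13 to 0.56). For CDKN1A the interval covers a fall to 0.720-fold and a rise to 1.36-fold over 10 years. CDKN2A, which rises with age in many human and mouse tissues, was at the floor in both 2 year olds (100 in male line 2 and 100 in female line 2) but also in 1 of the animals aged 20 years, female line 4. Both females aged 20 years differed from each other in CDKN1A (3209 and 1636) and GADD45A (625 and 265).

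**Figure D2:**
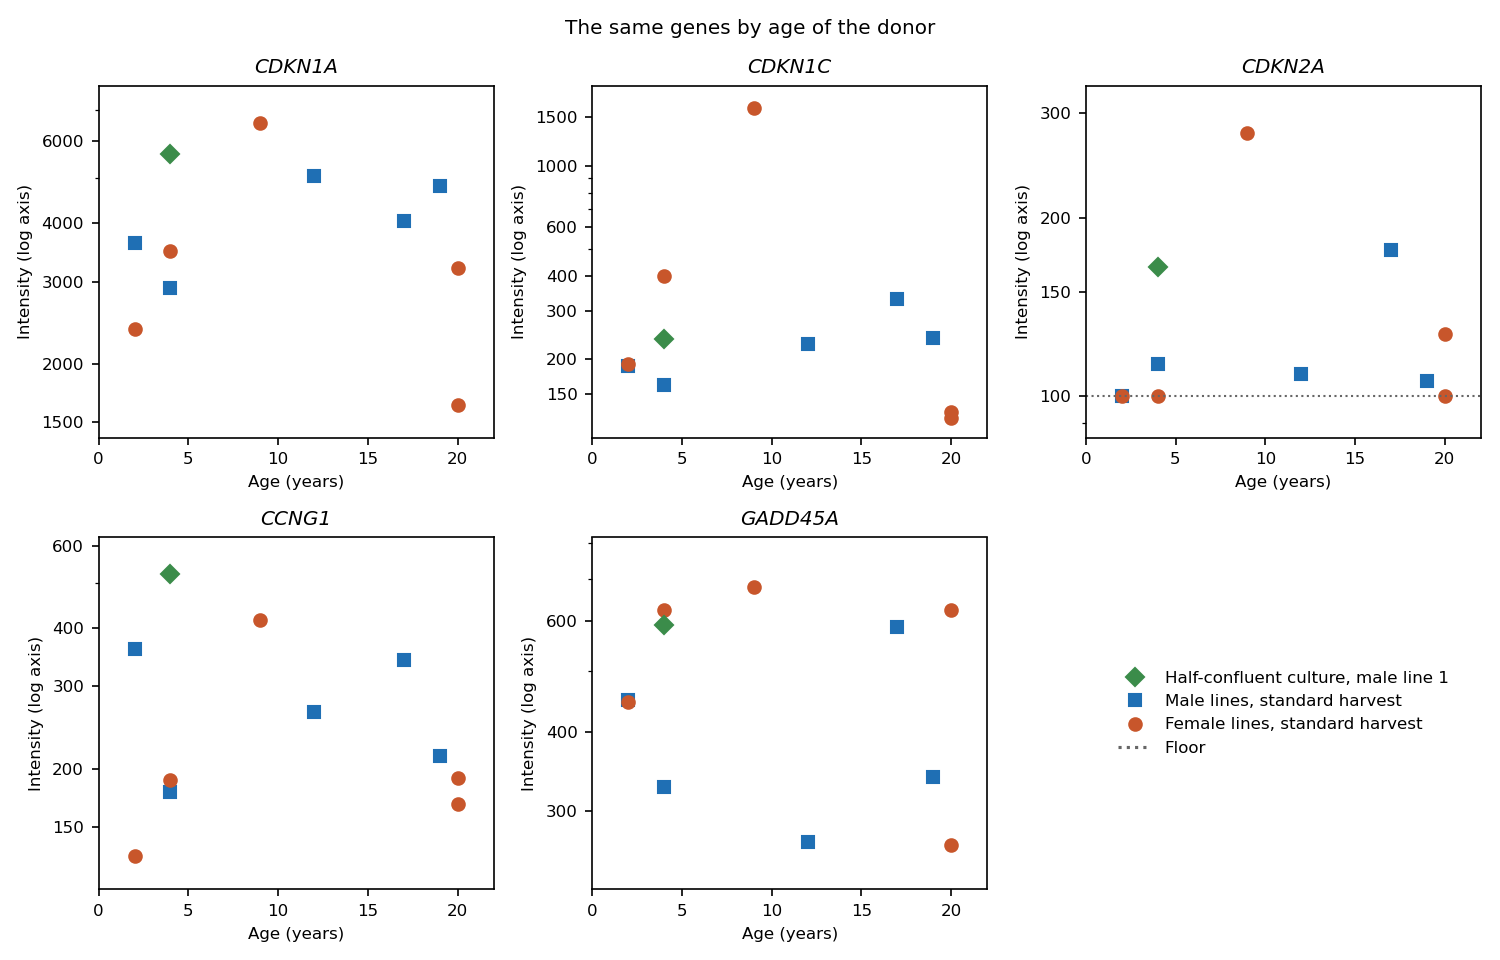
Intensity (log axis) of the 5 tested genes against the age of the donor in years, 1 point per culture, with the half-confluent culture of the 4 year old male as a diamond and the floor of 100 dotted. No age slope of these genes passed the test; the highest standard line in each panel is the 9 year old female.

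Whether age acted differently in the sexes was asked with a sex by age term. No member passed, against 1 of 7333 probe sets (0.0136%), and of 355 probe sets with an unadjusted p under 0.05 none was a member. The slope in males exceeded that in females by 1.24 ± 0.75 log2 per 10 years (SE) for CDKN1C (limma, adjusted p = 0.973) and 0.57 ± 0.42 for CDKN1A. Leaving out each line, these ran from 0.97 (without female line 4) to 2.01 (without female line 2) for CDKN1C and from 0.17 (without female line 5) to 0.92 (without female line 2) for CDKN1A. GADD45A (0.29), CDKN2A (0.20) and CCNG1 (-0.054) had smaller estimates, all with intervals that include 0.

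**Figure D3:**
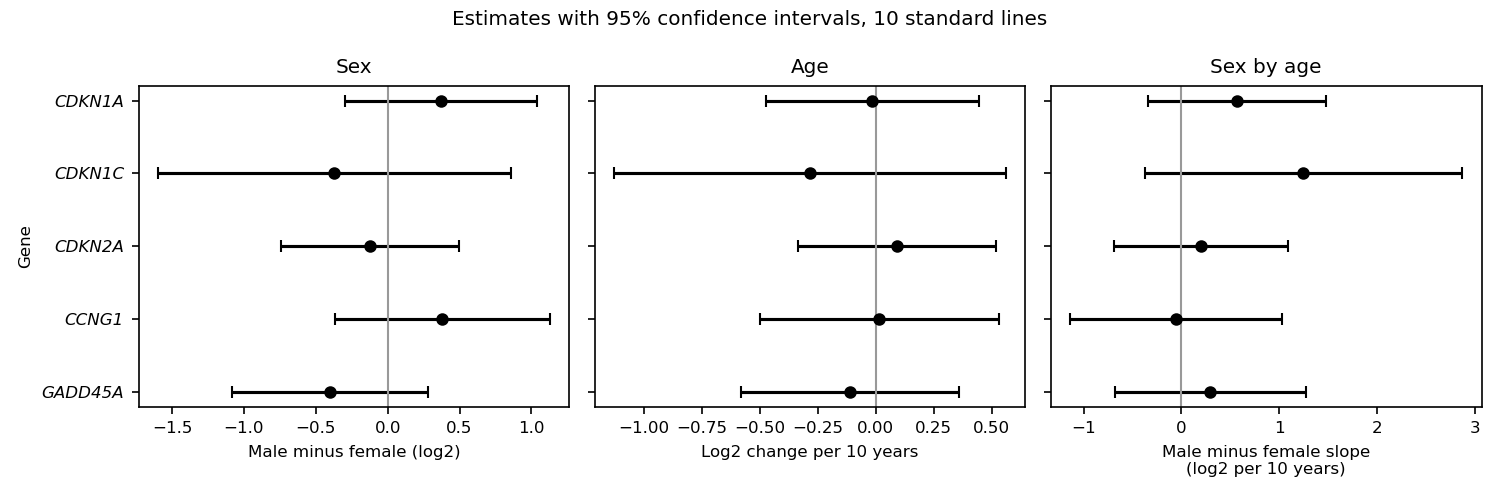
Estimates (points) with 95% confidence intervals (bars) from limma over the 10 standard lines for the male minus female difference (log2), the change per 10 years (log2) and the male minus female slope (log2 per 10 years). All 15 intervals include 0, and those of CDKN1C are the widest in each panel.

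The wider cell cycle network was read in the same fits. Of 27 tested CDK, cyclin and regulator genes, 17 were higher in males (median 0.15 log2, against 0.0032 over all probe sets) and 0 passed in limma. The largest estimates, 0.95 to 1.24 (SE 0.38 to 0.56), were those of CDK1, the mitotic cyclins CCNB1 and CCNB2, and CDKN3, a CDK phosphatase outside the inhibitor families above. These genes are also in the mitosis list, and female line 1 was the lowest standard line for CDK1, CCNB1 and CCNB2. In the retinoblastoma and E2F list 8 of 16 were higher in males (median -0.0040 log2). In the list of p53 and checkpoint regulators 8 of 11 were (median 0.12), with a largest estimate of 0.43 for MRE11. Of 22 other p53 targets 12 were higher in males (median 0.015), led by the death receptor gene FAS (0.55) and the apoptosis effector BAX (0.35). With age, 14 of 27, 9 of 16, 5 of 11 and 10 of 22 genes of these lists, in that order, had a positive estimate, and 0 of each passed. Their medians were 0.00099, 0.029, -0.015 and -0.018 log2 per 10 years, against -0.0031 over all probe sets. The share of all probe sets higher in males, or with a positive age estimate, was not counted. At an unadjusted p under 0.05, the 4 lists held 4, 0, 0 and 0 genes for sex and 0, 0, 1 and 2 for age.

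Harvest state was compared within male line 1, with 1 culture per state and therefore no test. All 5 tested members were higher in the half-confluent culture. CCNG1 read 521 in the half-confluent culture, against 178 in the standard culture, a log2 difference of 1.55. CDKN1A read 5636 in the half-confluent culture, against 2904 in the standard culture (0.96). GADD45A read 592 in the half-confluent culture, against 327 in the standard culture (0.86). Smaller differences were seen for CDKN1C (237 in the half-confluent culture, 162 in the standard culture, 0.55) and CDKN2A (165 in the half-confluent culture, 113 in the standard culture, 0.55). The CDKN1C probe set with a low signal went the other way, with 100 in the half-confluent culture against 127 in the standard culture.

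These differences were then set against all probe sets and against the spread between lines. Of 8151 probe sets above the floor in either culture, 50.5% were higher in the half-confluent culture by any amount, and 5.9% by over 2-fold, while 5.43% were lower by over 2-fold. Of 6 member probe sets so measured, 5 were higher, CCNG1 alone by over 2-fold, and 1 was lower, by less. A difference as high as that of CCNG1 was seen in 1.497% of probe sets, one as high as that of CDKN1A in 6.61% and one as high as that of GADD45A in 8.45%. The half-confluent level of CCNG1 lay above all 10 standard lines (130 to 416), which held for 11.9% of probe sets. Of 45 pairs of standard lines, 1 differed by as much in CCNG1, whereas 12 pairs did in CDKN1A, 14 in GADD45A, 16 in CDKN2A and 30 in CDKN1C. The half-confluent array had the strongest 18S ribosomal RNA controls, 1508 to 2611 against 100 in the standard culture, and an ACTB 3' to 5' ratio of 0.669 against 1.42. Smooth muscle markers summed to 20088 in the half-confluent culture, against 13593 in the standard culture. Among them MYH11 read 3997 in the half-confluent culture, against 874 in the standard culture, and CNN1 read 1154 in the half-confluent culture, against 362 in the standard culture. The part of these array and cell features in the differences was not tested.

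The CDKs, cyclins and other CDK regulators were divided. Of 27 CDK, cyclin and regulator genes measured, 9 were higher and 17 lower in the half-confluent culture, 3 of them by over 2-fold, where 50.5% of all probe sets were higher. The D-type cyclins, which activate CDK4 and CDK6, were among those that were higher. CCND1 read 13476 in the half-confluent culture, against 10006 in the standard culture, although its other probe sets differed by -0.082 and 0.61 log2. CCND2 read 727 in the half-confluent culture, against 445 in the standard culture, and CCND3 read 1200 in the half-confluent culture, against 1006 in the standard culture. The mitotic cyclin CCNB1 was also higher, with 486 in the half-confluent culture, against 274 in the standard culture. CDC25A, the phosphatase that activates CDK2, was at the floor in the half-confluent culture and read 408 in the standard culture. Both E-type cyclins, which drive entry into S phase, were at the floor there as well, against 358 for CCNE2 and 323 for CCNE1 in the standard culture. A second probe set of CCNE1 fell less (-0.43). WEE1, which restrains CDK1, read 147 in the half-confluent culture, against 283 in the standard culture (-0.94 log2), and by a second probe set the difference was -0.23. CDK4 had the same intensity, 917, in both. In the retinoblastoma and E2F list, 9 of 16 were higher and 7 lower, with E2F1 at 156 in the half-confluent culture against 407 in the standard culture; a second E2F1 probe set was at the floor in both.

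Other p53 targets were higher in 16 of 23 and lower in 7, with a median log2 difference of 0.32, against 0.010 over all probe sets. With a floor of 200 this median was 0.057. TP53I11 read 958 in the half-confluent culture, against 116 in the standard culture, although a second probe set of it was at the floor in both. TNFRSF10B read 1436 in the half-confluent culture, against 648 in the standard culture. The matrix gene THBS1 read 19814 in the half-confluent culture, against 6860 in the standard culture, and its other probe sets differed by 0.51 and 3.27 log2. The half-confluent value of each of these 3 genes was above all 10 standard lines. SFN, the 14-3-3 sigma gene that holds CDK1 in the cytoplasm, was lower (389 in the half-confluent culture, 785 in the standard culture), and by less in a second probe set (-0.48 log2). Of 11 p53 and checkpoint regulators, 4 were higher and 7 lower, none by over 2-fold, with a median of -0.35. With a floor of 200 the median of these regulators was 0.

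**Figure D4:**
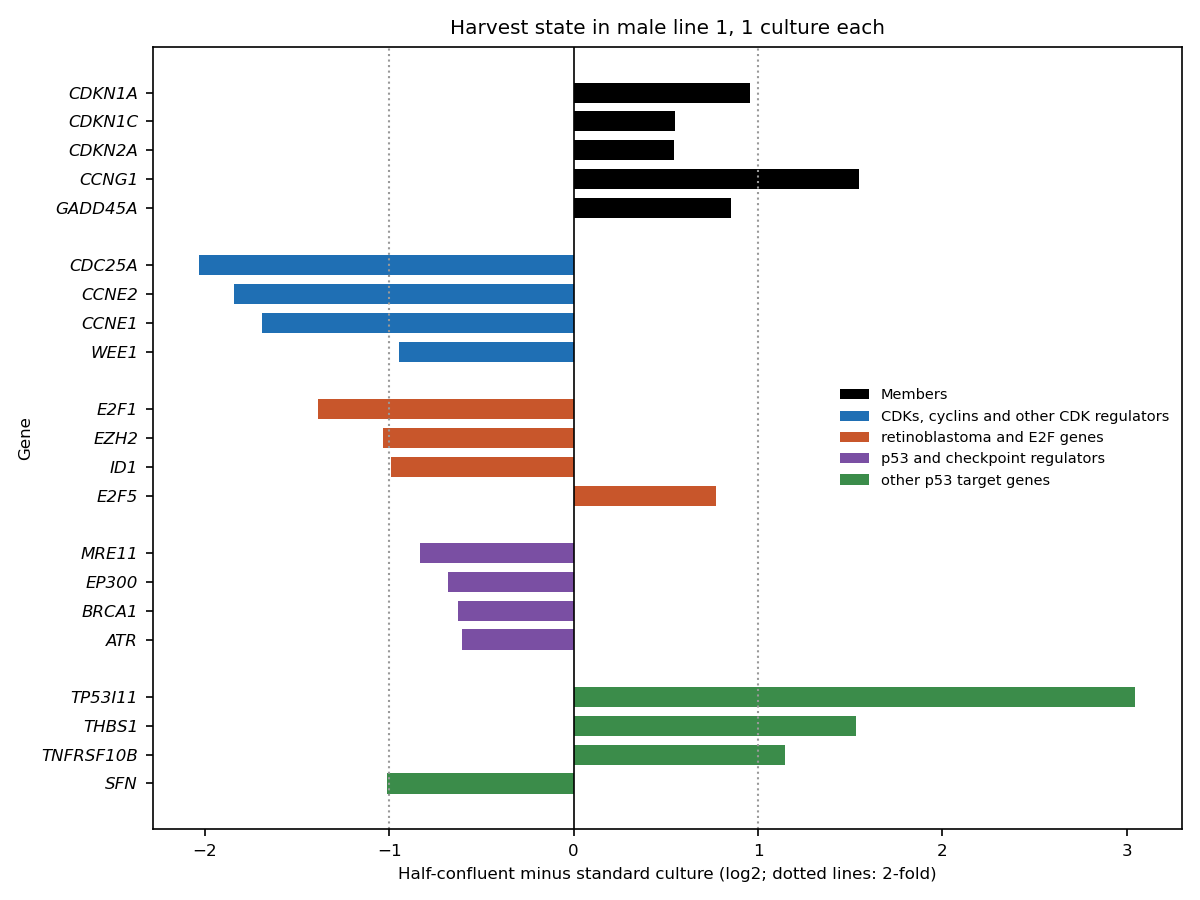
Difference between the half-confluent and the standard culture of male line 1 (log2, 1 culture each) for the 5 tested members and, per list, the 4 genes that differed most; dotted lines mark 2-fold. Members lie between 0.55 and 1.55, whereas CDC25A, CCNE2, CCNE1 and MRE11 were at the floor in the half-confluent culture and E2F5 in the standard culture, so their bars are bounded by the floor.

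The members were then compared with one another across the 10 standard lines. All 10 pairs of the 5 tested genes had a positive Pearson r, from 0.25 to 0.80, and none passed after adjustment. The highest was CDKN1C with CDKN2A (r = 0.80, permutation p = 0.0259, adjusted p = 0.0816; Spearman rho = 0.31, permutation p = 0.375, adjusted p = 0.469). CDKN1A with CDKN1C had r = 0.71 (permutation p = 0.0251, adjusted p = 0.0816; rho = 0.70, permutation p = 0.0310, adjusted p = 0.155). CDKN1A with CCNG1 had r = 0.67 (permutation p = 0.0327, adjusted p = 0.0816) and rho = 0.76 (permutation p = 0.0150, adjusted p = 0.150). Without the 2 lines farthest from the median, r was 0.52 for the first of these pairs, 0.38 for the second and 0.65 for the third. Left out in the same way, CDKN2A with GADD45A had r = -0.80 (0.38 over all 10 lines), CDKN1A with GADD45A -0.36 (0.35), CCNG1 with GADD45A -0.035 (0.25) and CDKN2A with CCNG1 -0.023 (0.67), so 4 of the 10 pairs were then negative. Without female line 1 alone, r of CDKN1C with CDKN2A was 0.24 and that of CDKN1A with CDKN2A was -0.014 (0.46 over all 10 lines). A pair passed when 1 other line was left out in 2 cases, CDKN2A with CCNG1 without male line 2 (r = 0.86, permutation test, adjusted p = 0.0325) and CDKN1C with GADD45A without female line 4 (r = 0.75, adjusted p = 0.0370).

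Of 10 relations between a member and the mean of the mitosis or replication list, 2 passed. CDKN2A was lower in lines with more replication transcripts, with r = -0.92 (permutation p = 6.60e-04, adjusted p = 0.00660) and rho = -0.83 (permutation p = 0.00463, adjusted p = 0.0463) over 10 lines. Without the lines farthest from the median, female lines 1 and 3, r was -0.70. Without female line 1 alone it was -0.69 (permutation test, adjusted p = 0.0704), no longer past the threshold, and 4 lines had CDKN2A at the floor. CCNG1 went the same way, with r = -0.71 (permutation p = 0.00855, adjusted p = 0.0427) and rho = -0.76 (permutation p = 0.0152, adjusted p = 0.0759), and r = -0.63 without female lines 1 and 3. The CCNG1 call was lost without any one of male lines 1, 3, 4 and 5 and female lines 1, 3 and 4, with r from -0.73 to -0.59. No sequencing, scan or culture batch is named in the labels, so no value within batches can be given.

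Relations of CDKN1A and CDKN1C with mitosis genes changed most when female line 1 was left out. Over 10 lines r was 0.19 for CDKN1A (permutation p = 0.595, adjusted p = 0.831; rho = 0.27, permutation p = 0.448, adjusted p = 0.747) and -0.16 for CDKN1C (permutation p = 0.686, adjusted p = 0.831; rho = 0.39, permutation p = 0.265, adjusted p = 0.530). Without female line 1, r was 0.77 and 0.88 for these genes (permutation test, adjusted p = 0.0638 and 0.0223). Among these 9 lines CDKN1C was higher where mitosis genes were higher, whereas female line 1 combined the highest CDKN1C with the lowest mitosis mean. Without female lines 3 and 1, which lay farthest from the median, r was 0.89 and 0.81. Leaving out female line 5 alone, r of CDKN1A was -0.027. The relation of CDKN1A with replication was -0.46 over 10 lines, -0.76 without female line 5 (permutation test, adjusted p = 0.0427) and 0.067 without female line 1.

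The genes whose pattern over the 10 lines was most like that of each member were found among 5365 others, by Pearson r and with no test, since the closest of so many will always be close. CDKN1A was nearest to SVEP1, an extracellular matrix adhesion gene (r = 0.94), OCEL1 (0.92) and DDB2 (0.91). DDB2 is itself a p53 target. Without female line 1, r was 0.92 for DDB2, and likewise 0.92 for SVEP1 and 0.89 for OCEL1. For DDB2 rho was 0.90 over all 10 lines. In the 22 other p53 targets tested, DDB2 was the 1 gene with r above 0.7 with CDKN1A, 12 had a positive r and the median was 0.20. In all other genes tested, 2559 of 5369 had a positive r, the median was -0.020 and 1.64% were above 0.7. TP53I11 (0.68) and TNFRSF10B (0.67) followed, and SFN (-0.69), DUSP5 (-0.67) and PLK3 (-0.63) ran opposite.

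The other members had other neighbours. CDKN2A was nearest to NCALD, TLE5 and APPBP2 (r = 0.97, 0.97 and 0.93), and without female line 1 these were 0.88, 0.95 and 0.75. CCNG1 was nearest to the complement regulator gene CD46 (0.93), B4GAT1 (0.90) and AHNAK2 (0.90). GADD45A was nearest to the transcription factor gene SOX4 (0.89), NDUFA7 (0.89) and VAMP7 (0.87). CDKN1C was nearest to SNX3 (0.94), PIK3C2B (0.94) and EZH1 (0.93), a histone methyltransferase gene, but without female line 1 these fell to 0.75, 0.76 and 0.65. All of these genes except NDUFA7, highest in male line 4, were highest in female line 1. The lowest intensity of NCALD, APPBP2, B4GAT1 and PIK3C2B was 100, the floor, so floored values enter their r.

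**Figure D5:**
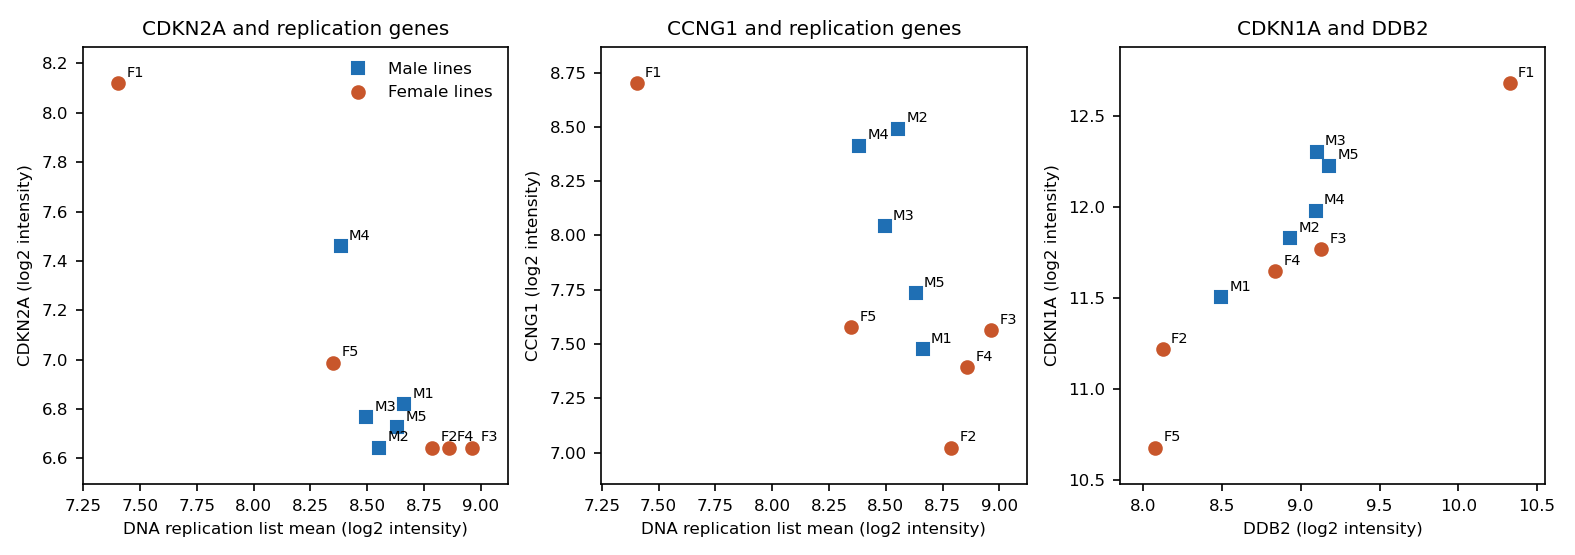
CDKN2A and CCNG1 (log2 intensity) against the mean log2 intensity of 31 DNA replication genes, and CDKN1A against DDB2 (both log2 intensity), for male lines M1 to M5 and female lines F1 to F5, 1 point per line. Female line 1 lies apart at low replication in the first pair of panels (7.40), whereas CDKN1A and DDB2 rise together across the other 9 lines too (r = 0.92).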

How the data were processed

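The authors deposited linear-scale intensities, as whole numbers, for the 12625 probe sets of a human Affymetrix array. Probe summarisation and array scaling: not given in the sources used here. Low values had been raised to 100, or to 90 in 2 arrays, before deposit. Gene symbols came from the probe annotation of 2016, and 67 control probe sets were left out. The 545 probe sets with several symbols were assigned to no gene. Values were floored at 100 and log2 taken. The 7333 probe sets above the floor in at least 5 of 11 arrays were fitted in R 4.3.3 using limma 3.58.1 (lmFit and trended eBayes; sex, age in years and, in a further fit, their product) over the 10 standard lines, with Benjamini-Hochberg adjustment over all of them, two-sided, threshold 0.05. The fits were tested on simulated data. Correlations used two-sided permutation tests with 100000 resamples (scipy 1.17.1), adjusted over 10 relations per family. A gene with several probe sets was represented by the one of highest mean. Lines were numbered in accession order, so numbers pair nothing. The number of arrays limits precision.

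Named were all member probe sets, up to 4 genes of largest estimate per described list, genes that give a list's count for female line 1 and the 3 nearest genes per member. The lists were CDKs and cyclins, retinoblastoma and E2F, p53 regulators, other p53 targets, mitosis and DNA replication. For mitosis, 23 of 25 genes were higher in males (median 0.84 log2), 10 rose with age by estimate (median -0.044 log2 per 10 years), and 13 of 24 were higher in the half-confluent culture. For replication these were 19 of 31, 10 of 31 and 4 of 31, with 9 of the 27 lower ones over 2-fold lower and a median of -0.73 log2 in the half-confluent culture. With a floor of 200 that median was -0.36. The median estimates of the replication list were 0.066 log2 for sex and -0.059 log2 per 10 years for age. None of either list passed for sex or age; harvest state had no test. Blood markers had a median intensity of 175. Members and lists were chosen with earlier results of these data known. The comparison of CDKN1A with p53 targets and the counts for female line 1 were added after the data were examined. No sequences were used.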

Additional observations from a re-analysis of the deposited data

Results flagged for a closer look

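Of 15 groups of values examined, 3 held a line whose gap to the nearest other line was large for the group's range, where chance flags about 1 in 20 groups. The 15 groups overlap, since each gene was examined over all lines and within each sex, and several CDKN2A values were tied at the floor. Female line 1 stood apart from the other 9 lines in CDKN1C, with 1616, and from the other females in CDKN2A, with 278. Male line 4 stood apart from the other males in CDKN2A, with 176, and on that array the ACTB 3' to 5' ratio was 2.27, above all others, with 18S ribosomal RNA controls of 146 to 313. The part of RNA quality in that value was not tested.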

How the results depend on the processing

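The number of members called was 0 for sex, age and sex by age in every alternative run: quantile normalization, median centring, a floor of 200, a pseudocount of 50, all probe sets, those above the floor in all arrays, no intensity trend, array weights, log2 of age (for the age slope) and leaving out each line. Harvest state gave 1 member probe set over 2-fold under each scaling and floor. CDKN2A is not among the probe sets above the floor in all arrays. Some values changed sign. With a floor of 200 the age slope was -0.018 for CDKN2A and -0.068 for CCNG1, and the sex by age term of CCNG1 was 0.0080. The age slope of CDKN1A was 0.037 with array weights and 0.054 per doubling of age. Leaving out each line, age slopes ran from -0.12 to 0.23 for CDKN1A, -0.15 to 0.14 for CCNG1 and -0.22 to 0.11 for GADD45A; sex differences from -0.67 to 0.25 for CDKN1C and -0.27 to 0.16 for CDKN2A; and sex by age terms from -0.33 to 0.31 for CCNG1, -0.015 to 0.42 for CDKN2A and -0.11 to 0.60 for GADD45A. Correlations were rerun only with quantile normalization and leaving out each line, so their dependence on the floor was not tested. In those runs, relations of members with the mitosis and replication lists that passed numbered 1 to 3, and pairs of members 0 to 1. Over these fits r ran from -0.027 to 0.77 (CDKN1A), -0.32 to 0.88 (CDKN1C), -0.16 to 0.42 (CCNG1) and -0.37 to 0.19 (GADD45A) for mitosis. For replication it ran from -0.76 to 0.067 (CDKN1A), -0.90 to 0.14 (CDKN1C) and -0.32 to 0.56 (GADD45A), and for CDKN1A with CDKN2A from -0.014 to 0.66. With a floor of 200, CDKN2A did not differ between harvest states (0) and its SD over lines was 0.15. The cause of these shifts was not tested. The line numbers follow accession order and pair no male line with a female line, so no paired analysis of sex was run. Harvest state had 1 pair of cultures, both of male line 1, and no test.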
